A study of Mus musculus with 13 samples.

Results

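The miR-30 family is a group of closely related miRNAs made in the mouse from 6 hairpins, mmu-mir-30a, mmu-mir-30b, mmu-mir-30c-1, mmu-mir-30c-2, mmu-mir-30d and mmu-mir-30e (below without the prefix for mouse). Every mature miRNA listed at one of these hairpins, from either arm, was taken as a member, and the mature miR-30c-5p, which both mir-30c hairpins encode, was counted once. This gave 11 mature miRNAs of 1384 listed in 13 small RNA libraries. The libraries came from bulk brain tissue of 4 groups of mice that all had the FVB/N background. TgR mice overexpress the human readthrough variant of acetylcholinesterase (hAChE-R), the enzyme that breaks down acetylcholine, constitutively from a minimal cytomegalovirus promoter-enhancer, and FVB/N mice of the parent strain carried no transgene. The prefrontal cortex (PFC) was sequenced in 3 FVB/N and 4 TgR mice and the hippocampus in 3 FVB/N and 3 TgR mice, and the labels do not say whether both regions came from the same mice. No treatment and no age were given for these libraries. TgR mice differ among themselves in behavior and in where the transgene is expressed, and the study took TgR tissue without dividing it by behavior. The comparisons therefore addressed whether miR-30 levels differed between TgR and FVB/N mice in either region, and whether the regions differed within a genotype.

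A miRNA hairpin is cut into a duplex of a 5p and a 3p strand, and one strand is usually kept in the Argonaute protein, where it pairs through its seed, bases 2 to 8, with target mRNAs and lowers their translation and stability. The 5p strands of the miR-30 family share one seed and so share most predicted targets. The family is abundant in many tissues including brain, and is known for limiting autophagy through Beclin 1, for targeting the neurotrophin Bdnf, and for holding back the Snai1 program of epithelial-mesenchymal transition.

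Among the members printed, the sequences below show which can be told apart only by 1 base, and which carry the same seed. They are the mature sequences of the 7 members matched in the RefSeq table (build GRCm38.p6), with the seed in capitals, and of miR-384-5p, the other miRNA listed in the libraries that has the 5p seed. The reference held no mature sequence of miR-30b and miR-30d, so they are named only. How many bases separate them from the other members is not shown.
miR-30a-5p: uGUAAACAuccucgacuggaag
miR-30e-5p: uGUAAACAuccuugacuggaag
miR-30c-5p: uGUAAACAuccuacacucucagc
miR-384-5p: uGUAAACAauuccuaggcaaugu
miR-30a-3p: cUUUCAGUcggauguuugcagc
miR-30e-3p: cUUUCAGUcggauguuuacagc
miR-30c-1-3p: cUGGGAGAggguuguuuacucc
miR-30c-2-3p: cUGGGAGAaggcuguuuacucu
The 5p arms shown share the seed GUAAACA. Counted from 1 at the 5′ end, miR-30a-5p and miR-30e-5p differ only by C13U, and miR-30a-3p and miR-30e-3p only by G18A. The 4 member 3p arms shown split into a pair with the seed UUUCAGU (30a and 30e) and a pair with UGGGAGA (30c-1 and 30c-2). The pair of 30c 3p arms differs from miR-30c-2-3p to miR-30c-1-3p by A9G, C12U and U22C. How the aligner handled mismatches was not given in the sources used here, so the division of reads between 30a and 30e is uncertain. miR-30b and miR-30d could not be compared by sequence. Whether reads were also exchanged with them, which would affect the sum of 30a and 30e too, was not tested.

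Positions were at hand for 4 of the 6 hairpins, and these 4 lie in 2 pairs of neighbors. mir-30b and mir-30d were not in the reference used, so whether they are neighbors is not covered here. Mir30a (chr1:23272269-23272339, plus strand) and Mir30c-2 (chr1:23291701-23291784, plus strand) are separated by 19361 bases, and Mir30c-2 lies in an exon of the long noncoding RNA gene Gm27028. Mir30c-1 (chr4:120769534-120769622, minus strand) and Mir30e (chr4:120772606-120772697, minus strand) are 2983 bases apart, both inside Nfyc, a gene for a subunit of the transcription factor NF-Y, on its strand and outside its annotated exons, so they are intronic. Each of these loci makes one member with the 30a/30e type of 3p arm and one with the 30c type.

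The libraries held 5350259 (TgR PFC 2) to 11111883 counts (TgR hippocampus 1) when every mature miRNA was counted once. Levels are given as CPM, counts scaled to a common library total over all 13 libraries by the TMM method, and 3 counts corresponded to 0.27 to 0.561 CPM. Reads carry no molecular identifiers, so this floor covers counting error only. No replicate pair agreed within sampling noise (chi-square per degree of freedom 47.9 to 558). The p-values below are set against the spread between libraries of a group, which holds differences between mice and in their handling together. As a check for brain tissue, 6 miRNAs known from neurons (miR-124-3p and miR-9-5p among them) summed to 273764 to 422116 CPM with none at 0. They were high in both regions, so they cannot check the labels of hippocampus and PFC. A set of 11 miRNAs of choroid plexus and ciliated cells summed to 1628 to 2264 CPM in FVB/N hippocampi, 2679 to 9955 CPM in TgR hippocampi and 1041 to 1486 CPM in all PFC libraries. In the same order, 4 red blood cell miRNAs summed to 1763 to 1859, 814 to 1092 and 1643 to 3814 CPM, and 5 oligodendrocyte miRNAs to 2256 to 3308, 2992 to 4865 and 1012 to 1436 CPM. White blood cell and microglial miRNAs (4) spanned 618 to 1080 CPM and vascular miRNAs (5) 17485 to 31571 CPM over all libraries. Of the markers, miR-219b-5p (oligodendrocytes) was at 0 in every TgR library and miR-449c-5p (ciliated cells) in every TgR PFC library. In bulk tissue, fewer cells of a type and less of a miRNA per cell cannot be told apart.

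The family took between 3.26 and 4.57% of the reads of every library. It made up 4.03, 4.06 and 3.81% of the counts in FVB/N PFC, 3.84, 4.30, 3.80 and 3.70% in TgR PFC, 3.59, 4.57 and 3.26% in FVB/N hippocampi and 4.07, 4.30 and 4.45% in TgR hippocampi. FVB/N and TgR mice overlapped within each region, and the widest range was among FVB/N hippocampi. The TgR hippocampi all lay above the FVB/N PFC libraries, the closest values being 4.07 and 4.06%. These groups differ in both genotype and region, and a share of a library also depends on its other miRNAs. Nearly all reads of the family were 5p strand, since the 3p arms together took 0.166 to 0.227% of a library.

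Members differed in level by more than 2 orders of magnitude, far more than any member differed between groups. The most abundant were miR-30d-5p, with a mean of 13617 CPM over 13 libraries (rank 14 of 1384), and miR-30c-5p, with 12463 CPM (rank 16). miR-30a-5p (6451 CPM, rank 30) and miR-30e-5p (4447 CPM, rank 36) followed, and in each of the 13 libraries miR-30a-5p was the higher of the pair, although their ranges over libraries overlapped (4581 to 7564 and 3650 to 5687 CPM). A middle tier held miR-30e-3p (998 CPM), miR-30b-5p (826 CPM) and miR-30a-3p (757 CPM). In each of the 13 libraries miR-30e-3p was higher than miR-30a-3p, although their ranges overlapped (865 to 1111 and 548 to 938 CPM). The range of miR-30b-5p (442 to 1516 CPM) spanned both, so its place between them was not separated by the spread. miR-30c-2-3p stood at 92.0 CPM. miR-30b-3p (37.9 CPM) and miR-30d-3p (36.6 CPM) overlapped, and miR-30c-1-3p was the least abundant at 27.0 CPM, with its highest library (31.6 CPM) just under the lowest of miR-30d-3p (31.8 CPM). All 11 members were read in every library and passed the filter on low counts in every comparison. Adapter ligation favors some small RNA ends over others, so an order of CPM is an order of reads and need not be one of molecules.

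**Figure D1:**
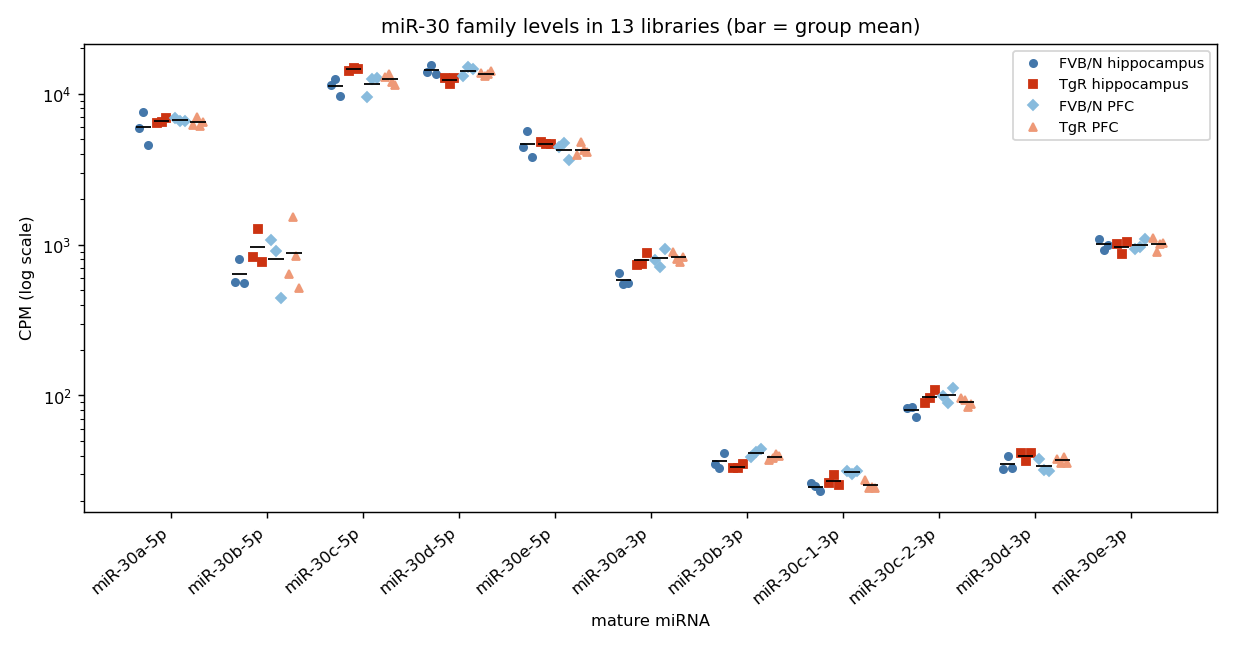
CPM (log axis) of the 11 mature members of the miR-30 family, 1 symbol per library and a bar at the mean of each of 4 groups. Levels run from about the miR-30c-1-3p mean of 27.0 CPM to the miR-30d-5p mean of 13617 CPM, and the libraries of one member lie close together except for miR-30b-5p.

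The hairpins also differed in how far the 5p strand outweighed the 3p strand. mmu-mir-30e gave 4.50 5p reads for each 3p read as a mean over 13 libraries (3.36 to 6.13) and mmu-mir-30a 8.70 (6.95 to 13.8), and their 3p strands still ranked 83 and 100 of 1384 by mean CPM. mmu-mir-30b gave 22.2 (10.01 to 39.5). Of hairpins with their own 5p arm, mmu-mir-30d had the smallest 3p share, with 376 5p reads per 3p read (305 to 464). For the mir-30c hairpins the 5p reads cannot be assigned to one hairpin, and the shared miR-30c-5p gave 136 reads per read of miR-30c-2-3p (95.7 to 158) and 466 per read of miR-30c-1-3p (302 to 569). Of the specific 3p arms, that of the chromosome 1 copy was read more often, with 3.42 ± 0.34 reads of miR-30c-2-3p per read of miR-30c-1-3p (SD, n = 13), between 2.92 and 4.24 in single libraries. This does not show which hairpin gave more miR-30c-5p.

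**Figure D2:**
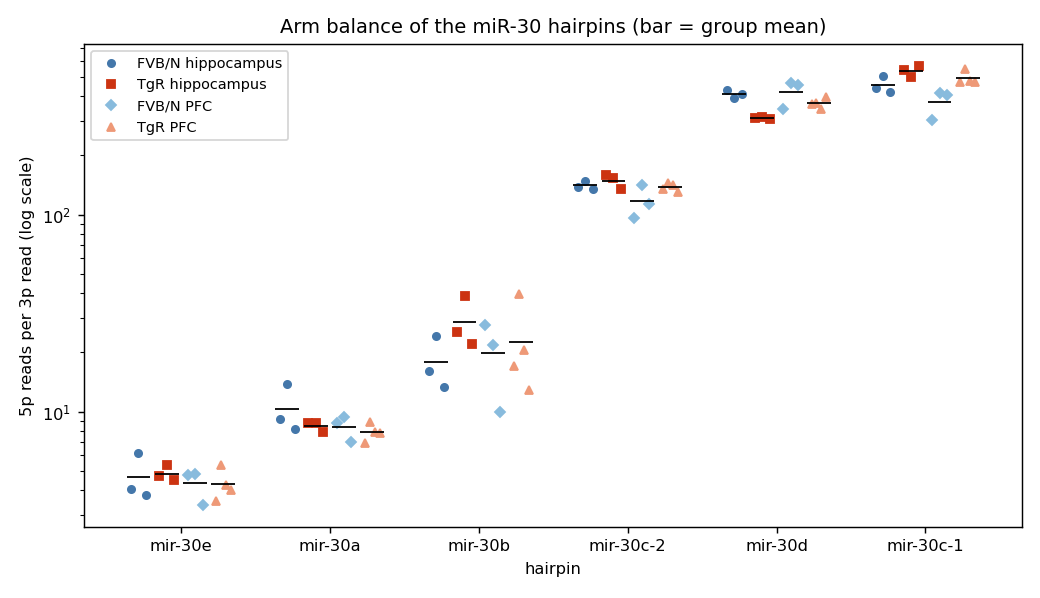
Reads of the 5p arm per read of the 3p arm (log axis) at each hairpin, 1 symbol per library and a bar at each group mean. The order of hairpins from mir-30e (mean 4.50) to mir-30c-1 (mean 466) was alike in the 4 groups except that mir-30d lay above mir-30c-1 in FVB/N PFC. At mir-30d the TgR hippocampi (305 to 313) lie below all other libraries, a separation that was not counted over all hairpins.

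TgR and FVB/N hippocampi were compared first. In TgR hippocampi miR-30c-5p, miR-30a-3p and miR-30b-5p had the largest positive differences and miR-30d-5p the largest negative one, but 0 of 11 members passed edgeR's quasi-likelihood test at an adjusted p of 0.05, where 4.85% of 619 tested miRNAs did. DESeq2 also called 0 members, against 8.08% of all tested miRNAs. At an unadjusted p under 0.05 there were 3 members, against 17.4% of all miRNAs. Of the 11 members, 7 had a positive log2 fold change (49.9% of all miRNAs did), and their median was 0.12 against 0.00 for all.

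miR-30c-5p was at 11512, 12553 and 9715 CPM in FVB/N hippocampi and at 14154, 14822 and 14591 CPM in TgR hippocampi. All 3 TgR values lay above all FVB/N values, and above every PFC library as well. The log2 fold change was 0.35 (SE 0.12, 95% interval 0.091 to 0.61, adjusted p = 0.14 by edgeR), or 1.28-fold. Between genotypes 4 of the 11 members did not overlap, as did 22.3% of all tested miRNAs. They were 3 higher in TgR (miR-30a-3p, miR-30c-2-3p and miR-30c-5p, against 11.3% of all miRNAs) and 1 lower (miR-30d-5p, against 11%).

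miR-30a-3p, the passenger strand of mir-30a, was at 650, 548 and 560 CPM in FVB/N and at 736, 742 and 878 CPM in TgR hippocampi, without overlap. Its log2 fold change was 0.40 (SE 0.14, 95% interval 0.095 to 0.71, adjusted p = 0.15 by edgeR). Its neighbor on chromosome 1, miR-30c-2-3p, was at 83.1, 84.3 and 72.0 CPM against 89.4, 96.1 and 109 CPM, with a log2 fold change of 0.28 (SE 0.16, adjusted p = 0.36). For both, the gap between the genotypes was narrower than the range within the TgR group.

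miR-30d-5p, the most abundant member, was at 13920, 15464 and 13609 CPM in FVB/N and at 12743, 11565 and 12675 CPM in TgR hippocampi. Every TgR value was lower, and the log2 fold change was -0.24 (SE 0.11, 95% interval -0.47 to 0.0014, adjusted p = 0.29 by edgeR). Its passenger strand miR-30d-3p had values of 32.5, 39.6 and 33.1 against 41.3, 37.0 and 41.5 CPM, a log2 fold change of 0.17 with overlapping groups. miR-30b-5p was at 564, 806 and 553 CPM against 832, 1276 and 771 CPM, with overlap through 1 library, and a log2 fold change of 0.57 (SE 0.23, 95% interval 0.067 to 1.08, adjusted p = 0.20 by edgeR). With no filter on low counts the same test gave it a log2 fold change of 0.60 at an adjusted p of 0.011. In that setting 64 miRNAs were called in all, against 30 in the main fit. The number tested without the filter is not given here, so 64 cannot be read as a share. The range of the adjusted p of miR-30b-5p over 14 alternatives was 0.011 to 0.52.

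The other 5p arms overlapped between the genotypes. For miR-30a-5p the log2 fold change was 0.12 (95% interval -0.24 to 0.48). miR-30a-5p was at 5939, 7564 and 4581 CPM in FVB/N and at 6454, 6467 and 6885 CPM in TgR hippocampi, so that the TgR values fell inside the FVB/N range. miR-30e-5p behaved alike, with 4419, 5687 and 3787 against 4759, 4628 and 4632 CPM and a log2 fold change of 0.00 (95% interval -0.33 to 0.32), or 0.798-fold to 1.25-fold. miR-30e-3p, miR-30b-3p and miR-30c-1-3p had log2 fold changes of -0.07, -0.14 and 0.12, each with overlapping groups. The choroid plexus, ciliated, oligodendrocyte and red blood cell miRNAs moved in the same comparison, with 7 of 10 tested choroid plexus and ciliated cell miRNAs and 1 of 4 oligodendrocyte miRNAs higher and 3 of 4 red blood cell miRNAs lower in TgR. Their part in the miR-30 values was not tested.

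**Figure D3:**
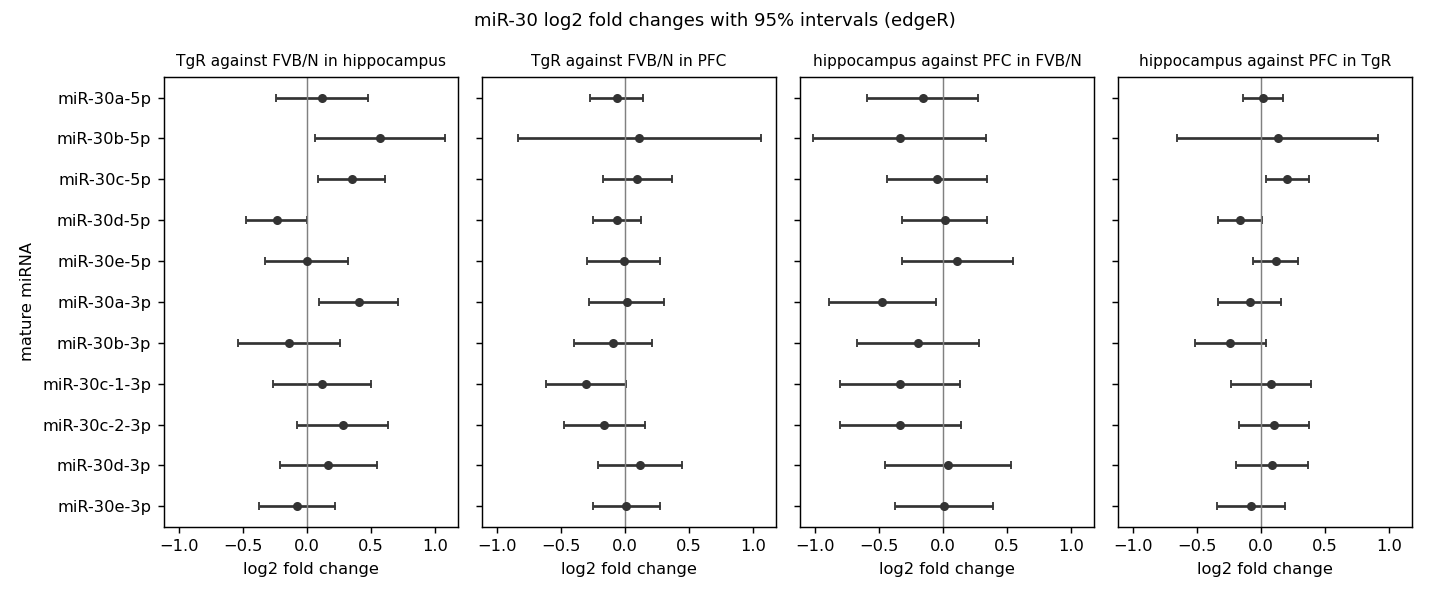
Log2 fold changes of the 11 members with 95% intervals (edgeR) in 4 comparisons, each with its own fit. In hippocampus the intervals of miR-30a-3p, miR-30b-5p and miR-30c-5p exclude 0 before adjustment over all miRNAs, in PFC no interval does, and miR-30b-5p has the widest interval in each comparison.

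The pair of most abundant members lay in opposite directions in the TgR hippocampus, and their ratio separated these libraries from the rest. It was chosen after its values were seen and carries no test. Reads of miR-30c-5p per read of miR-30d-5p were 0.827, 0.812 and 0.714 in FVB/N hippocampi and 1.11, 1.28 and 1.15 in TgR hippocampi. In PFC they were 0.732, 0.837 and 0.878 in FVB/N and 0.940, 1.03, 0.888 and 0.808 in TgR mice. The 3 TgR hippocampi were above the other 10 libraries. A ratio within a library does not depend on how libraries are scaled. Of all 5p reads of the family, miR-30c-5p made up 30.5 ± 0.98% in FVB/N and 37.2 ± 0.98% in TgR hippocampi (SD, n = 3 each), and miR-30d-5p 39.1 ± 2.8% and 31.5 ± 1.5%. The PFC means lay between, with miR-30c-5p at 30.8 ± 3.2% in FVB/N and 33.0 ± 1.5% in TgR mice and miR-30d-5p at 37.7 ± 0.52% and 36.2 ± 2.5%. miR-30a-5p kept 16.2 to 17.9%, miR-30e-5p 11.3 to 12.5% and miR-30b-5p 1.73 to 2.46% as group means.

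**Figure D4:**
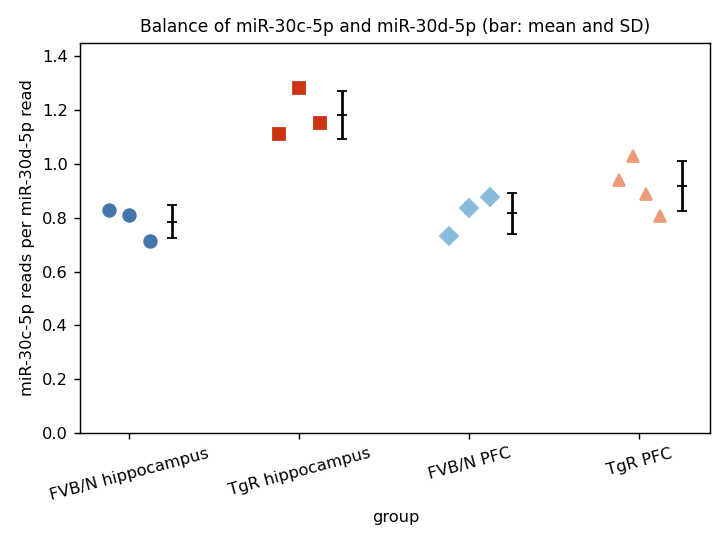
Reads of miR-30c-5p per read of miR-30d-5p in each library, with the mean and SD of each group beside its symbols. The TgR hippocampi (1.11 to 1.28) lie above the FVB/N hippocampi (0.714 to 0.827) and above the PFC libraries of both genotypes (0.732 to 1.03).

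In PFC no member differed detectably between the genotypes. With edgeR 0 of 11 members were called, against 0.159% of 628 miRNAs, 0 with DESeq2 (0.159% of all), and 0 at an unadjusted p under 0.05 (3.18% of all). Of the 11 members, 5 had a positive log2 fold change (50.6% of all), and the 5p arms ranged from -0.06 to 0.11. miR-30c-5p was at 9544, 12538 and 12731 CPM in FVB/N and at 12985, 13477, 11939 and 11452 CPM in TgR PFC, and its 95% interval ran from -0.17 to 0.37. miR-30d-5p was at 13033, 14982 and 14507 against 13820, 13078, 13448 and 14173 CPM, with an interval from -0.25 to 0.12. For both, the groups overlapped, and the intervals hold the differences seen in the hippocampus. miR-30c-1-3p was the 1 member whose groups did not overlap (4.78% of all miRNAs in either direction and 2.39% lower). It was at 31.6, 30.4 and 31.4 CPM in FVB/N and at 27.5, 24.5, 24.9 and 24.4 CPM in TgR PFC, a log2 fold change of -0.30 (SE 0.14, 95% interval -0.62 to 0.0079, adjusted p = 0.999 by edgeR). Of the 6 marker sets no tested miRNA passed the test in PFC.

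Hippocampus and PFC were then compared within each genotype. In FVB/N mice 0 of 11 members were called by edgeR (3.58% of 615 miRNAs were) and 0 by DESeq2 (5.53%), and 1 was under an unadjusted p of 0.05 (16.6% of all). This was miR-30a-3p, at 650, 548 and 560 CPM in hippocampi and 788, 706 and 938 CPM in PFC, with a log2 fold change of -0.47 (SE 0.19, 95% interval -0.89 to -0.056, adjusted p = 0.23 by edgeR). The groups did not overlap for miR-30a-3p, miR-30c-1-3p and miR-30c-2-3p, all lower in hippocampus (9.27% of all miRNAs were lower and 21.8% separated in either direction). A positive log2 fold change was found for 4 of 11 members (51.9% of all). The log2 fold changes of the 30c 3p arms were -0.34 and -0.33. The 5p arms overlapped between regions, and miR-30d-5p had a log2 fold change of 0.01 with a 95% interval from -0.32 to 0.34.

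In TgR mice 0 of 11 members were called by edgeR, although 13.6% of 633 miRNAs were, and 0 by DESeq2 (19.6%). The 1 member under an unadjusted p of 0.05 (27.5% of all) was miR-30c-5p, with 14154, 14822 and 14591 CPM in hippocampi and 12985, 13477, 11939 and 11452 CPM in PFC. Positive log2 fold changes were found for 7 of 11 members (52.1% of all), and 3 of 11 did not overlap between regions (27.8% of all). All hippocampal values of miR-30c-5p were higher (15.2% of all miRNAs were so), with a log2 fold change of 0.20 (SE 0.073, 95% interval 0.035 to 0.37, adjusted p = 0.11 by edgeR). miR-30d-5p and miR-30b-3p were the 2 members with all hippocampal values lower (12.6% of all), with log2 fold changes of -0.17 (SE 0.076, adjusted p = 0.20) and -0.24 (SE 0.12, adjusted p = 0.24). When only miRNAs with a mean of at least 300 counts were tested, miR-30d-5p passed with a log2 fold change of -0.17 and an adjusted p of 0.049 by edgeR. In that setting 88 miRNAs were called in all, against 86 in the main fit. The number tested in that setting is not given here, so 88 cannot be read as a share. The range of the adjusted p of miR-30d-5p over 15 alternatives was 0.049 to 0.48. In this comparison all 4 tested oligodendrocyte miRNAs and 7 of 10 choroid plexus and ciliated cell miRNAs were higher in hippocampus and 3 of 4 red blood cell, 2 of 5 vascular, 1 of 4 white blood cell and microglial and 1 of 6 neuronal miRNAs lower, and their part was not tested. Among FVB/N mice, 2 of 4 oligodendrocyte miRNAs and 1 of 10 choroid plexus and ciliated cell miRNAs were higher in hippocampus.

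Whether the genotype difference itself differed between regions was tested over all 13 libraries. No member passed (0 of 11 by edgeR, against 0.464% of 647 miRNAs, and 0 by DESeq2, against 2.01%), and 2 were under an unadjusted p of 0.05 (8.5% of all). These were miR-30c-2-3p, with a difference of 0.45 on the log2 scale (SE 0.20), and miR-30c-1-3p, with 0.43 (SE 0.20), both at an adjusted p of 0.56 by edgeR. The difference was positive for 8 of 11 members (53% of all). For miR-30c-5p the hippocampal minus the PFC difference was 0.26 (95% interval -0.11 to 0.64) and for miR-30d-5p -0.16 (-0.44 to 0.12). The hippocampal pattern of these miRNAs was therefore not shown to differ from that of PFC.

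The balance of arms was tested in the same groups with limma on the log2 ratio of 5p to 3p counts, which needs no scaling between libraries. In the hippocampal genotype comparison 0 of 6 member hairpins were called (0.455% of 220 hairpins were), and 2 were under an unadjusted p of 0.05, against 25.9% of all. At mir-30d the ratio was 428, 391 and 411 in FVB/N and 309, 313 and 305 in TgR hippocampi. The TgR values were close together and below every other library, and the log2 difference was -0.41 (SE 0.15, adjusted p = 0.12 by limma). How many of all hairpins separated in this way was not counted. At mir-30b it was 16.0, 24.3 and 13.3 against 25.2, 38.7 and 21.9, a log2 difference of 0.68 (SE 0.28, adjusted p = 0.15 by limma). Without FVB/N hippocampus replicate 2 this became 0.93 at an adjusted p of 0.036 by limma. In that fit 31 hairpins were called in all, against 1 in the main fit. The number of hairpins tested in that fit is not given here. Over 8 alternatives the adjusted p ran from 0.013 to 0.54. The lowest came with a block for replicate number, where 50 hairpins were called in all. In PFC 0 member hairpins passed (0% of 226 hairpins did), with 1 under an unadjusted p of 0.05 (1.33% of all), mir-30c-1, at 302, 413 and 405 in FVB/N and between 469 and 549 in TgR mice. Between regions 0 member hairpins passed in FVB/N (0% of 218) and 0 in TgR mice (8.41% of 226), with 0 (5.5% of all) and 1 (20.8%) under an unadjusted p of 0.05. The 1 was mir-30d in TgR mice, with a log2 difference of -0.25 (SE 0.086, adjusted p = 0.12 by limma). For the difference of the genotype effects between regions, 0 passed (0% of 234) and 0 were under an unadjusted p of 0.05 (7.26%).

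miR-30b-5p stood out from the family by its spread between libraries of one group. Differences between mice cannot be told apart here from those of dissection or library preparation. It was at 1070, 911 and 442 CPM in FVB/N PFC and at 637, 1516, 846 and 516 CPM in TgR PFC, besides the hippocampal values given above. The highest of the 13 libraries was 3.43 times the lowest. Its SD within groups was 0.56 on the log2 scale, the 9th largest of the 213 miRNAs with a mean of at least 100 CPM, whose median was 0.21. The other strand of the same hairpin, miR-30b-3p, was at 39.0, 41.9 and 44.2 CPM in FVB/N PFC, 37.5, 38.3, 41.1 and 39.9 CPM in TgR PFC, 35.2, 33.2 and 41.4 CPM in FVB/N hippocampi and 33.0, 33.0 and 35.2 CPM in TgR hippocampi. It varied 1.34-fold over all libraries, with an SD within groups of 0.10. At the other end, miR-30d-5p had an SD of 0.08 and ranked 212 of 213. The remaining members above 100 CPM ranked 137 to 187, with SDs of 0.13 to 0.18.

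**Figure D5:**
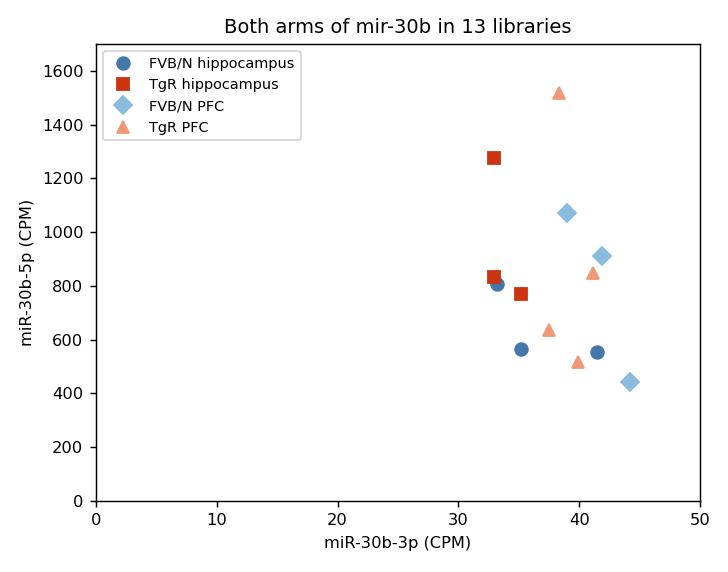
CPM of the 5p arm (vertical) against the 3p arm (horizontal) of mir-30b in 13 libraries, both axes from 0. The 5p arm spans 442 to 1516 CPM while the 3p arm stays between 33.0 and 44.2 CPM, in all 4 groups.

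The way members deviated together within groups is given as a description over 13 libraries that share their scaling and depth. The 3p arms of the chromosome 1 neighbors, miR-30a-3p and miR-30c-2-3p, had a Pearson correlation of 0.82 in their deviations from the group means, and those of the chromosome 4 neighbors, miR-30e-3p and miR-30c-1-3p, of 0.01. miR-30a-5p and miR-30e-5p, which differ by 1 base, had a correlation of 0.82, and their 3p arms one of 0.70. The strands of the same hairpin did not follow each other closely, with correlations of -0.01 for mir-30a, -0.47 for mir-30b, 0.18 for mir-30d and -0.61 for mir-30e. The strongest opposite pair was miR-30b-5p and miR-30e-3p at -0.86, and miR-30b-5p and miR-30e-5p had 0.71. Among 206 miRNAs outside the family with at least 100 CPM, those most like the summed 5p arms were miR-598-3p (0.85), miR-181a-1-3p (0.82), miR-148b-3p (0.81), miR-107-3p (0.78) and miR-93-5p (0.75), where the median of all was 0.06.

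miR-384-5p, encoded on the X chromosome (chrX:105344282-105344369, minus strand), has the same seed and shares only its first 8 bases with miR-30a-5p before the first difference. It was far below the major 5p arms, with a mean of 304 CPM (rank 152). It was at 287, 283 and 279 CPM in FVB/N and at 352, 363 and 345 CPM in TgR hippocampi, with all TgR values higher, and the log2 fold change was 0.30 (SE 0.13, 95% interval 0.015 to 0.59, adjusted p = 0.25 by edgeR). In PFC it was at 281, 306 and 246 CPM in FVB/N and at 272, 352, 311 and 274 CPM in TgR mice, with overlap and a log2 fold change of 0.12. Its deviations had a correlation of 0.26 with those of the summed miR-30 5p arms.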

How the data were processed

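Reads of 13 libraries, made from 300 ng of total RNA each, were checked with FastQC and aligned to miRBase with miRExpress under default settings by the authors, who deposited raw read counts per pair of hairpin and mature miRNA. Pairs not listed were taken as 0. One row per mature miRNA was kept, at the hairpin with most counts, since hairpins sharing a mature miRNA repeat its reads (60 of 71 such miRNAs within 5%). Counts were fitted per comparison with edgeR 4.0.16 in R 4.3.3 (TMM, filterByExpr with a minimum of 10, quasi-likelihood test, Benjamini-Hochberg adjustment over all tested miRNAs, threshold 0.05). Two-sided intervals cover 95%. CPM levels use TMM factors over all 13 libraries, so a fold change can differ slightly from a ratio of mean CPM. Correlations used log2(CPM + 0.5). Arm ratios were tested with limma 3.58.1 on counts with 0.5 added. The alternatives were DESeq2 1.42.0, other scaling, other filters, hairpin pairs as deposited, a common fit, a pseudocount of 5, omission of 1 mouse at a time, and a block for replicate number. Scripts were tested on simulated data.

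The members, marker sets and tests were chosen with earlier results of these data known. The text names all members, listed miRNAs with a miR-30 seed in the RefSeq table (miR-6958-5p, the other such miRNA, was in no library), the 5 miRNAs most like the summed 5p arms, and at most 2 miRNAs per marker set, with exceptions marked. Groups came from the sample titles. Positions and sequences come from RefSeq and gene overlaps from GENCODE M21, both on GRCm38.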

Additional observations from a re-analysis of the deposited data

Results flagged for a closer look

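Of 18 values checked for a single distant library in the group of 4 TgR PFC mice, 2 passed Dixon's 95% critical value, and chance gives about 1 in 20. In TgR PFC 1, miR-30c-1-3p was at 27.5 CPM and the other 3 TgR PFC libraries at 24.4 to 24.9 CPM, so that the gap was 0.833 of the range. This is the library nearest to the FVB/N PFC values of 30.4 to 31.6 CPM. In TgR PFC 2, the shallowest library, the ratio of miR-30c-5p to miR-30c-1-3p reads was 549, against 469 to 479 in the other 3, a gap of 0.878 of the range. Both involve the least abundant member.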

How the results depend on the processing

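Over 852 recomputed fold changes of members, 769 kept their sign and their side of the threshold, 81 changed sign and 2 passed the threshold, and no member whose log2 fold change was over 0.16 in size changed sign. Those that passed were miR-30b-5p and miR-30d-5p, each the 1 member called in its setting. For miR-30b-5p this was the hippocampal genotype comparison with no filter (log2 fold change 0.60, adjusted p = 0.011 by edgeR), where 64 miRNAs were called in all. For miR-30d-5p it was between regions in TgR mice with a mean of at least 300 counts (-0.17, adjusted p = 0.049 by edgeR), where 88 were. The numbers tested in these settings are not given here. The cause of these 2 calls was not tested. Of 294 recomputed arm differences, 274 were alike and 18 changed sign. In the hippocampal genotype comparison mir-30b passed in 2 settings, as the 1 member hairpin called. Under the replicate block (0.68, adjusted p = 0.013 by limma) 50 hairpins were called in all. Without FVB/N hippocampus replicate 2 (0.93, adjusted p = 0.036 by limma) 31 were.

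For all miRNAs, the 30 hippocampal genotype calls became 50 with DESeq2 and 64 with no filter, and fell to between 2 (without FVB/N hippocampus replicate 3) and 18 (without TgR hippocampus replicate 2), with 13, 17, 12 and 10 without FVB/N replicates 1 and 2 and TgR replicates 1 and 3. The 22 calls between regions in FVB/N became 34 with DESeq2, 52 with no filter, 13 with a mean of at least 300 counts and 49 with all 13 libraries in one fit, and ranged from 8 (without FVB/N PFC replicate 2) to 51 (without FVB/N PFC replicate 3) with 1 mouse left out. The 86 calls between regions in TgR ranged from 43 (without TgR PFC replicate 3) to 125 (without TgR PFC replicate 2). The 3 calls for the difference of genotype effects became 13 with DESeq2 and 16 with no filter and ranged from 2 to 8 (without TgR hippocampus replicate 2). With library size only, 14 of 21 hippocampal genotype calls were higher, against 15 of 30, and 70 of 107 between regions in TgR, against 42 of 86. This scaling moved the median of all miRNAs by 0.10, 0.10 and 0.12 in the hippocampal genotype comparison, between regions in TgR and in the difference of genotype effects. For arms, the 1 call between hippocampal genotypes ranged from 0 to 31 (without FVB/N hippocampus replicate 2), with members from 0 to 1, the 19 between regions in TgR from 0 (without TgR hippocampus replicate 1 or 3) to 33 (without TgR PFC replicate 2), and the 0 for the difference of genotype effects from 0 to 2.

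The labels give replicate numbers but no pairing, and deviations of same-numbered libraries correlated at -0.20 to 0.44. Numbers here are those of the sample titles. The deposited files number 2 of the 3 FVB/N PFC libraries differently (replicates 2 and 3 of the titles are 3 and 4 there), so which PFC libraries share a number in the block is uncertain. Each library was best correlated with its own number in 2 (hippocampal genotypes), 2 (PFC genotypes), 5 (regions in FVB/N) and 3 (regions in TgR) of 6 libraries. With the replicate block the hippocampal genotype calls were 17, those of the difference of genotype effects 5, and the arm calls 50 between hippocampal genotypes and 2 between regions in FVB/N. Under the block, log2 fold changes of changed sign were miR-30e-5p 0.015 (hippocampal genotypes), miR-30e-3p -0.0011 and miR-30e-5p 0.013 (PFC genotypes), miR-30b-5p -0.013 (regions in TgR) and the mir-30e arm balance 0.014 (PFC genotypes).

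The other changes of sign were in values near 0 that passed no test. With library size only they were miR-30e-3p 0.036 and miR-30e-5p 0.088 (hippocampal genotypes), miR-30a-3p -0.0055 and miR-30e-3p -0.011 (PFC genotypes), miR-30d-5p -0.011 and miR-30e-3p -0.022 (regions in FVB/N), miR-30a-3p 0.016 and miR-30e-3p 0.026 (regions in TgR), and miR-30b-3p 0.086 and miR-30e-3p 0.048 (difference of genotype effects). With no filter they were miR-30e-5p 0.030 (hippocampal genotypes), miR-30e-3p -0.00098 (PFC genotypes), and miR-30b-3p 0.043 and miR-30e-3p 0.0020 (difference of genotype effects). With all libraries in one fit it was miR-30e-5p 0.013 (hippocampal genotypes). With a mean of at least 300 counts they were miR-30a-3p -0.012 and miR-30e-3p -0.017 (PFC genotypes), and miR-30d-5p -0.0067 and miR-30e-3p -0.0083 (regions in FVB/N). With DESeq2, and with its size factors in edgeR, they were miR-30d-5p -0.012 and miR-30e-3p -0.015 (regions in FVB/N), miR-30a-5p -0.020 (regions in TgR) and miR-30e-5p -0.0051 (difference of genotype effects). With hairpin pairs as deposited they were miR-30a-5p -0.00026 (regions in TgR) and miR-30e-5p -0.024 (difference of genotype effects).

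With 1 mouse left out, values of changing sign ranged as follows. Between hippocampal genotypes, miR-30a-5p ranged from -0.027 to 0.31 and miR-30e-5p from -0.11 to 0.16. Between PFC genotypes the ranges were miR-30a-3p -0.077 to 0.14, miR-30b-5p -0.29 to 0.38, miR-30c-5p -0.016 to 0.17, miR-30e-3p -0.030 to 0.081 and miR-30e-5p -0.11 to 0.059. Between regions in FVB/N they were miR-30a-5p -0.37 to 0.010, miR-30c-5p -0.20 to 0.055, miR-30d-3p -0.069 to 0.10, miR-30d-5p -0.072 to 0.055, miR-30e-3p -0.063 to 0.067 and miR-30e-5p -0.079 to 0.24. Between regions in TgR they were miR-30a-5p -0.048 to 0.055, miR-30b-5p -0.18 to 0.50, miR-30c-1-3p -0.010 to 0.13 and miR-30c-2-3p -0.0077 to 0.19. For the difference of genotype effects they were miR-30b-3p -0.10 to 0.080, miR-30d-3p -0.037 to 0.16 and miR-30e-5p -0.096 to 0.19. For arm balance they were mir-30e -0.044 to 0.30 (hippocampal genotypes), mir-30b -0.25 to 0.48 and mir-30e -0.19 to 0.078 (PFC genotypes), mir-30b -0.50 to 0.23, mir-30d -0.17 to 0.052 and mir-30e -0.13 to 0.22 (regions in FVB/N), and mir-30a -0.32 to 0.053 and mir-30e -0.030 to 0.32 (difference of genotype effects). The least abundant member, miR-30c-1-3p, rested on 135 (TgR PFC 2) to 319 counts (FVB/N PFC 1) per library.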

Other observations

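The miRNAs whose deviations most resembled those of miR-30b-5p alone were looked up after its wide spread had been seen. Over the 13 libraries the Pearson correlations were 0.96 for miR-126a-5p, an endothelial miRNA, 0.95 for miR-144-3p, a red blood cell miRNA, 0.93 for miR-34a-5p, 0.92 for miR-151-5p and 0.91 for miR-29c-3p. They were picked as the highest values among miRNAs with a mean of at least 100 CPM. The first 2 belong to the marker sets of vascular and red blood cells. Correlations of the other members of these sets are not given here, so the 2 do not stand for their sets. These values describe shared deviations between libraries of one group, and no cause was tested.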
